A study of Homo sapiens with 6 samples.

Results

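The transcripts of 8 RNA-binding proteins of the nucleus are described here: NONO, SFPQ and PSPC1, RBM14, the FET proteins EWSR1 and TAF15, TARDBP (the gene of TDP-43), and MATR3 (the gene of matrin 3). They were found by gene symbol among 19907 names in the deposited count tables. The 8 genes took 9 of 19940 rows, because MATR3 was listed on a pair of rows, and all 9 rows passed the filter on low counts. The cells were U2OS, a human osteosarcoma line, and in all groups they carried a stable GFP-DCP1A transgene under G418 selection; DCP1A is a decapping protein of P-bodies. Total RNA was sequenced after removal of ribosomal RNA in 6 libraries. Rescue cells (2 libraries) were kept in medium with 300 mM sodium for 4 h and then in isotonic medium for 4 h. Hypertonic cells (2 libraries) were kept at 300 mM sodium for 4 h, and isotonic cells (2 libraries) were mock-treated at 150 mM sodium for 4 h. Because rescue cells were harvested after a longer time, the return to isotonic medium and the added hours cannot be told apart. The sources used here give neither the promoter of the transgene nor whether the line is 1 clone.

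Paraspeckles are bodies of the nucleus that assemble on the long noncoding RNA NEAT1. NONO, SFPQ and PSPC1 form the DBHS family, whose members pair with each other through shared RNA-binding and coiled-coil domains, and NONO and SFPQ are needed for the bodies to form. RBM14 bridges paraspeckle subunits through a prion-like domain. EWSR1 and TAF15 carry low-complexity, prion-like domains and take part in transcription and splicing. TDP-43 and matrin 3 bind RNA and regulate splicing, and both are mutated in amyotrophic lateral sclerosis. The study's title concerns proteins that phase-separate when cell volume changes, and several of these proteins are known to form condensates. The tables hold transcripts, not proteins or condensates, and NEAT1 was not analysed here.

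Total counts ranged from 90196278 to 105991428 per library. Libraries outside rescue resembled a library of the other label more than that of their own. Over 17388 rows with at least 100 counts in sum, the SD of the log2 ratio was 0.954 between hypertonic 1 and hypertonic 2, and 0.964 between isotonic 1 and isotonic 2. It was 0.201 between hypertonic 1 and isotonic 2, 0.184 between hypertonic 2 and isotonic 1, and 0.163 between the rescue libraries. Whether titles are exchanged in the record cannot be told from the labels, and an exchange would change what every hypertonic and isotonic value below means. All 6 libraries were kept under their labels. Separate cultures within a group are not stated, and the protocol speaks of sequencing in duplicate. The p-values therefore cover the spread among these 6 libraries, and may not cover that among separate cultures. In rescue that spread may be technical. Within hypertonic and isotonic it includes the large difference between libraries of the same label given above, whose source was not tested. Of 8 bone markers, SPARC (687 to 744 CPM), COL1A1 (828 to 1175 CPM) and RUNX2 (17.2 to 77.7 CPM) were well counted. The others were low: ALPL reached at most 2.82 CPM, BGLAP 1.09 CPM and SP7 0.533 CPM. COL1A2 stayed under 0.2 CPM and IBSP had no count in hypertonic 1 and isotonic 2. Markers of epithelial, blood, endothelial and liver cells (11 genes) summed to 36.5 and 38.9 CPM in rescue, 12.6 and 31.8 CPM in hypertonic and 12.9 and 32.7 CPM in isotonic libraries; CD3E had no count in the 4 libraries outside rescue. Their part in the results was not tested. DCP1A was at 527 and 505 CPM in rescue, 764 and 916 CPM in hypertonic, and 927 and 786 CPM in isotonic libraries.

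Levels below are CPM, that is, counts relative to the library total. Fold changes come from edgeR after TMM scaling, which also corrects for differences in RNA composition. The TMM factors were 1.142 and 1.153 in rescue and between 0.885 and 0.986 in the other libraries, so a fitted change in rescue lies lower than the ratio of the printed CPM. With scaling by library total alone, the median log2 change over all rows was 0.27 for rescue over isotonic and 0.28 for rescue over hypertonic, against -0.02 in each with TMM. Adjusted p-values are from the edgeR quasi-likelihood test with Benjamini-Hochberg adjustment over all 18208 rows tested, with a two-sided threshold of 0.05, unless a restricted fit is named. Errors of levels are SDs of 2 libraries, and errors of log2 changes are standard errors. Counting error was small: the exact Poisson 95% interval of a member's count was between 0.671% and 2.25% of the count to each side. In bulk RNA, fewer cells with a transcript and less transcript per cell cannot be told apart.

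The comparisons of rescue with isotonic and of rescue with hypertonic ask how transcript levels stood 4 h after the return to isotonic medium. NONO, EWSR1, TAF15, TARDBP and the MATR3 row with fewer counts fell in rescue in both comparisons, by between 0.56 and 0.97 on the log2 scale. SFPQ, PSPC1, RBM14 and the MATR3 row with more counts did not pass in either. Thus 5 of 9 rows were lower and 0 were higher, where 13.5% of all rows were lower and 9.61% higher than isotonic, and 13.8% were lower and 9.86% higher than hypertonic. With scaling by library total, 3 rows were lower and 1 higher in each comparison, where 6.01% of all rows were lower and 11.3% higher than isotonic, and 6.03% were lower and 11.6% higher than hypertonic. The 1 row of 9 that was higher is thus near the share over all rows. With upper quartile scaling, NONO and TARDBP alone were lower in each comparison and 0 rows were higher, where 7.71% of all rows were lower and 11.5% higher than isotonic, and 7.95% were lower and 11.7% higher than hypertonic. The median log2 change of the 9 rows was -0.71 over isotonic and -0.72 over hypertonic, against -0.02 over all rows in each. The members, all well counted, were not set against rows of like level. Rows of the whole series with 0 counts numbered 690 and 699 in the rescue libraries and 1248 to 1653 in the others. The lists of related genes below had medians close to that of the members. Both comparisons share the rescue libraries, so they are not separate evidence. Leaving out either rescue library, or either library of the group set against it, ended all calls, of members and of every other row; 3652 to 6631 rows then kept an unadjusted p under 0.05, and between 4 and 7 member rows.

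**Figure D1:**
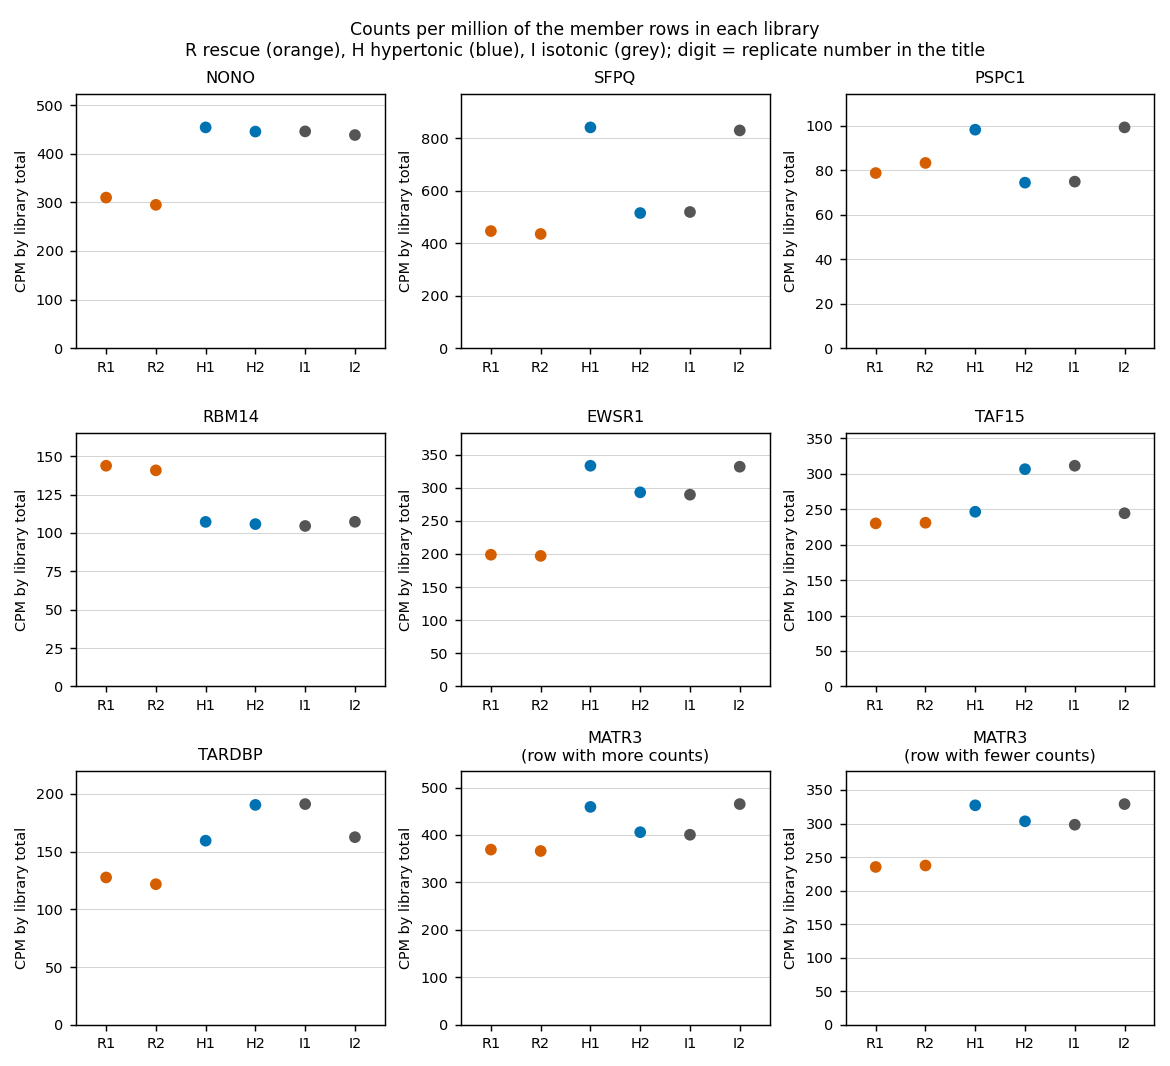
CPM by library total (vertical axes, from 0) for the 9 rows of the 8 genes in each of 6 libraries (horizontal axes), with rescue (R) left of hypertonic (H) and isotonic (I). Every point is a library. The rescue libraries lie lowest for 7 of the rows and highest for RBM14, while H1 lies beside I2 and H2 beside I1 for SFPQ, PSPC1, EWSR1, TAF15, TARDBP and both MATR3 rows.

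NONO, a DBHS protein, is encoded on chromosome X from 71283192 to 71301168 on the plus strand (GRCh38, GENCODE release 29), and no other annotated gene overlaps it. It was measured at 310.0 and 295 CPM in rescue, 455 and 446 CPM in hypertonic and 446 and 439 CPM in isotonic libraries. The rescue libraries stood well below the other 4, which lay close together. NONO averaged 302.5 ± 10.6 CPM in rescue, 450.2 ± 6.1 CPM in hypertonic and 443 ± 5.3 CPM in isotonic cells (SD, n = 2 each). It fell by 0.84 over isotonic (SE 0.114, adjusted p = 0.0137, edgeR) and by 0.88 over hypertonic (SE 0.114, adjusted p = 0.0128, edgeR).

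SFPQ, the partner of NONO in most DBHS dimers, lies on chromosome 1 from 35176378 to 35193148 on the minus strand, with no overlapping gene. Its levels were 447 and 436 CPM in rescue, 842 and 515 CPM in hypertonic, and 519 and 831 CPM in isotonic libraries. Both rescue libraries were lowest, but hypertonic 1 and isotonic 2 stood far above hypertonic 2 and isotonic 1. The log2 change was -0.93 over isotonic (SE 0.407, adjusted p = 0.174, edgeR) and -0.94 over hypertonic (SE 0.407, adjusted p = 0.168, edgeR). These point estimates were close to those of EWSR1, with an SE more than 2 times as wide.

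PSPC1, the third DBHS protein, lies on chromosome 13 from 19674752 to 19783019 on the minus strand, where the noncoding PSPC1-AS2 and RN7SL166P overlap it. It had 78.7 and 83.2 CPM in rescue, 98.2 and 74.4 CPM in hypertonic, and 74.9 and 99.2 CPM in isotonic libraries. The rescue values lay between the low and the high libraries of the other groups, so the groups overlapped on this scale. After TMM scaling they were 68.9 and 72.2 CPM, below the lowest other value of 75.9 CPM. The log2 change was -0.41 over isotonic (SE 0.277, adjusted p = 0.344, edgeR).

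RBM14 differed from the other members in direction. The gene lies on chromosome 11 from 66616582 to 66627347 on the plus strand, nearly all of it within the span of the readthrough row RBM14-RBM4. RBM14 had 144 and 141 CPM in rescue, 107 and 106 CPM in hypertonic, and 105 and 107 CPM in isotonic libraries. By library total, both rescue libraries lay above the other 4, which were within 3 CPM of each other. After TMM scaling the separation was small. RBM14 was then at 125.9 and 122.1 CPM in rescue, 121.1 and 107.9 CPM in hypertonic, and 106.0 and 120.8 CPM in isotonic libraries. With TMM scaling the log2 change was 0.13 over isotonic (SE 0.122, adjusted p = 0.493, edgeR) and 0.11 over hypertonic (SE 0.122, adjusted p = 0.541, edgeR). With scaling by library total it passed, at 0.43 (SE 0.0849, adjusted p = 0.0379, edgeR) and 0.42 (SE 0.0849, adjusted p = 0.0389, edgeR), where the median of all rows was 0.27 and 0.28. In its group means RBM14 was at 142.2 ± 2.12 CPM in rescue, 106 ± 1.01 CPM in hypertonic and 106 ± 1.91 CPM in isotonic cells (SD, n = 2 each).

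The RBM14-RBM4 row held 97.1% to 99.5% of the summed counts of RBM14 and RBM4, another RNA-binding protein gene, in each library. Reads of RBM14 thus appear in both rows, and the readthrough row is not a separate measurement. RBM4 itself had 119 and 114 CPM in rescue, 112 and 100.2 CPM in hypertonic, and 98.6 and 111 CPM in isotonic libraries, and it did not pass over isotonic (log2 change -0.15, SE 0.174, adjusted p = 0.58, edgeR).

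The windows around the transcription starts of NONO, RBM14 and EWSR1 are shown because NONO and EWSR1 fell in rescue while RBM14 was higher in the rescue libraries by library total. Each window runs from 250 bases before to 50 bases after the start (RefSeq, GRCh38.p14). NONO is at chrX:71283385-71283684, RBM14 at chr11:66616380-66616679 and EWSR1 at chr22:29268018-29268317, all on the plus strand. Capitals mark CCAAT, the box bound by NF-Y, or its reverse complement ATTGG.
NONO: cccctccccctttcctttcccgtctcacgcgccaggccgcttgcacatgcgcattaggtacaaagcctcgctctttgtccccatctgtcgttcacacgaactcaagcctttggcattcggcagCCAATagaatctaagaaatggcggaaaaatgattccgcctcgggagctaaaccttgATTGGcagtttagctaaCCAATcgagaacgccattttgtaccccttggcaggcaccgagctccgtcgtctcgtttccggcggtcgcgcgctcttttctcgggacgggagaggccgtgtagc
RBM14: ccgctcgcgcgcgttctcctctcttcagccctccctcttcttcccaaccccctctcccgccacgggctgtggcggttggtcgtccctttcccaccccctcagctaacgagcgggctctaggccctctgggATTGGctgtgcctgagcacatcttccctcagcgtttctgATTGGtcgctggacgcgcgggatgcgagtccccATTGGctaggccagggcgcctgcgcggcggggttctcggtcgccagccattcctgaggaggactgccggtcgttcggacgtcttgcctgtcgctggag
EWSR1: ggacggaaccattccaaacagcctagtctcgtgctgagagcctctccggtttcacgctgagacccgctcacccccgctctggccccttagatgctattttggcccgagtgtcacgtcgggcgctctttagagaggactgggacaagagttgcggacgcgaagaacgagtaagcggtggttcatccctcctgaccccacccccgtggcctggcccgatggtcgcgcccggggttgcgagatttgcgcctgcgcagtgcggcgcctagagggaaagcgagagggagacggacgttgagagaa
The windows of NONO and RBM14 each held 3 CCAAT boxes on either strand, and that of EWSR1 held 0. Over 34943 such windows, 34.6% held at least 1. The other motifs, searched on both strands, were GGGCGG, bound by SP1, in 44.9% of windows, TGGAAA, the core bound by NFAT5, in 20.8%, and GAANNTTC, from the heat shock element, in 6.79%. None of these letters occurred in the 3 windows printed. Of the 8 genes, 6 had a window in the table, and SFPQ and TAF15 had none. Among the windows not printed, that of TARDBP held 1 GGGCGG and 1 TGGAAA, the first of the pair for MATR3 held 3 GGGCGG, and the other MATR3 window and that of PSPC1 held none of the motifs. These matches describe letters and were not tested for binding.

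EWSR1, the FET protein fused to FLI1 in Ewing sarcoma, lies on chromosome 22 from 29268009 to 29300525 on the plus strand. It shares 201 bases with RHBDD3 on the other strand. It had 199 and 197 CPM in rescue, 333 and 293 CPM in hypertonic, and 289 and 332 CPM in isotonic libraries. The rescue libraries agreed closely and lay far below the lowest of the other 4. EWSR1 fell by 0.95 over isotonic (SE 0.182, adjusted p = 0.0293, edgeR) and by 0.97 over hypertonic (SE 0.182, adjusted p = 0.0278, edgeR). Upper quartile scaling ended both calls, at -0.74 (adjusted p = 0.0546, edgeR) and -0.76 (adjusted p = 0.0512, edgeR). RHBDD3, at 17.4 to 27.9 CPM in all libraries, was counted far less.

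TAF15, the other FET member in the tables used here, is annotated on chromosome 17 from 35713791 to 35864615 on the plus strand. That long span encloses or overlaps 6 other rows. TAF15 had 229.9 and 231 CPM in rescue, 246 and 306 CPM in hypertonic, and 311 and 244 CPM in isotonic libraries. The rescue libraries were lowest by a small margin, and hypertonic 2 and isotonic 1 stood highest. It fell by 0.56 over isotonic (SE 0.121, adjusted p = 0.0367, edgeR) and by 0.56 over hypertonic (SE 0.121, adjusted p = 0.0364, edgeR). With scaling by library total it did not pass (log2 change -0.27, adjusted p = 0.328, and -0.26, adjusted p = 0.338, edgeR), nor with upper quartile scaling (-0.34, adjusted p = 0.12, and -0.35, adjusted p = 0.118, edgeR).

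Among the rows that overlap TAF15, AP2B1, of the clathrin adaptor, shares 12619 bases with it and fell by 0.58 over isotonic (SE 0.0865, adjusted p = 0.017, edgeR). AP2B1 was at 228 and 223 CPM in rescue, 262 and 289 CPM in hypertonic, and 289.7 and 259 CPM in isotonic libraries. RASL10B, a Ras-like gene that lies wholly inside the TAF15 span, was at 4.79 and 4.65 CPM in rescue, 18.3 and 19.9 CPM in hypertonic, and 19.8 and 17.7 CPM in isotonic libraries. It fell by 2.28 over isotonic (SE 0.148, adjusted p = 0.00834, edgeR). HEATR9, on the other strand, had 7.96 and 9.17 CPM in rescue libraries, against 0.316 and 2.75 CPM in hypertonic and 3.104 and 0.322 CPM in isotonic libraries. GAS2L2, MMP28 and C17orf50 stayed under 0.4 CPM in every library. How far reads of these genes enter the TAF15 row was not tested.

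TARDBP lies on chromosome 1 from 11012344 to 11026420 on the plus strand. It had 128 and 122 CPM in rescue, 159.5 and 191 CPM in hypertonic, and 191 and 163 CPM in isotonic libraries. The rescue libraries were lowest, and hypertonic 2 and isotonic 1 were highest, an order opposite to that of SFPQ. TARDBP fell by 0.79 over isotonic (SE 0.102, adjusted p = 0.0128, edgeR) and by 0.79 over hypertonic (SE 0.102, adjusted p = 0.0128, edgeR). With scaling by library total the change was -0.50 (adjusted p = 0.0777, edgeR) and -0.49 (adjusted p = 0.0821, edgeR). The row AL109811.4 covers nearly the same span on the same strand, and the count of TARDBP was 90.3% to 96.8% of its count, so the pair of rows largely repeat each other.

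MATR3 has a pair of annotated genes of the same name on chromosome 5, from 139273752 to 139331671 and from 139293648 to 139331677, both on the plus strand. The tables do not say which row belongs to which, so they are named by their counts. The row with more counts had 369 and 366 CPM in rescue, 459 and 406 CPM in hypertonic, and 400.5 and 465 CPM in isotonic libraries. The row with fewer counts had 235 and 237 CPM in rescue, 327 and 303 CPM in hypertonic, and 298 and 329 CPM in isotonic libraries. In both rows the rescue libraries lay below all others. The row with fewer counts fell by 0.71 over isotonic (SE 0.154, adjusted p = 0.0387, edgeR), while the other was at -0.54 (SE 0.183, adjusted p = 0.105, edgeR). Over hypertonic the values were -0.72 (SE 0.154, adjusted p = 0.0369, edgeR) and -0.54 (SE 0.183, adjusted p = 0.104, edgeR). With upper quartile scaling the row with fewer counts did not pass, at -0.49 (adjusted p = 0.0886, edgeR) over isotonic and -0.51 (adjusted p = 0.0832, edgeR) over hypertonic. The longer gene overlaps SIL1 on the other strand and encloses SNHG4 and small RNA genes. Nearly all of the shorter gene lies within the longer, so the MATR3 rows may share reads and may not be separate measurements. Whether the rows differ from each other was not tested.

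By library total, both rescue libraries lay below all other 4 in 7 of the 9 rows, where 21.8% of all rows did. They lay above them in 1, where 46.9% did. After TMM scaling the counts were 8 and 1, against 33.6% and 34.7% of all rows. Both MATR3 rows are among those below, so the rows below stand for 6 genes by library total and 7 after TMM scaling.

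The comparison of hypertonic with isotonic asks how transcript levels stood after 4 h at the higher sodium. With libraries grouped as labelled, the members showed no change that passed: 0 of 9 rows were higher and 0 lower, as were 0% of all rows in each direction. Log2 changes lay between -0.01 and 0.03, with SEs of 0.101 (TARDBP) to 0.403 (SFPQ). By the edgeR quasi-likelihood test, 52 rows, none of them a member, had an unadjusted p under 0.05. DESeq2 called 1 row, which was no member, and limma voom called 0, with 42 and 44 rows at an unadjusted p under 0.05. A p above the threshold does not show that levels were alike, since the spread within each group held the large differences between its libraries.

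Within a replicate number the members differed, and in opposite directions. SFPQ was 1.81-fold higher in hypertonic 1 than in isotonic 1, and 1.78-fold lower in hypertonic 2 than in isotonic 2. To test this, edgeR was fitted to the 2 rescue libraries and the hypertonic and isotonic libraries of a single number, each lone library being assumed to vary like the rescue libraries. In number 1, SFPQ (log2 change 0.85, SE 0.097), PSPC1 (0.55, SE 0.0844), EWSR1 (0.36, SE 0.0873), RBM14 (0.19, SE 0.083) and both MATR3 rows (0.35, SE 0.092, and 0.29, SE 0.0879) were higher in hypertonic. That is 6 of 9 rows, against 31.6% of all rows, and 0 were lower, against 32.6%. In number 2, SFPQ (-0.83, SE 0.0967), PSPC1 (-0.56, SE 0.0847), EWSR1 (-0.32, SE 0.0873) and both MATR3 rows (-0.34, SE 0.092, and -0.26, SE 0.088) were lower in hypertonic. That is 5 of 9 rows, against 31% of all rows, and 0 were higher, against 32.9%.

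NONO was at 0.18 in number 1 and -0.12 in number 2. TAF15 was at -0.18 and 0.19, and TARDBP at -0.10 and 0.09, which is the opposite order to that of SFPQ. RBM14 was at -0.16 in number 2. The directions of the hypertonic comparison therefore rest on which number is read.

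**Figure D2:**
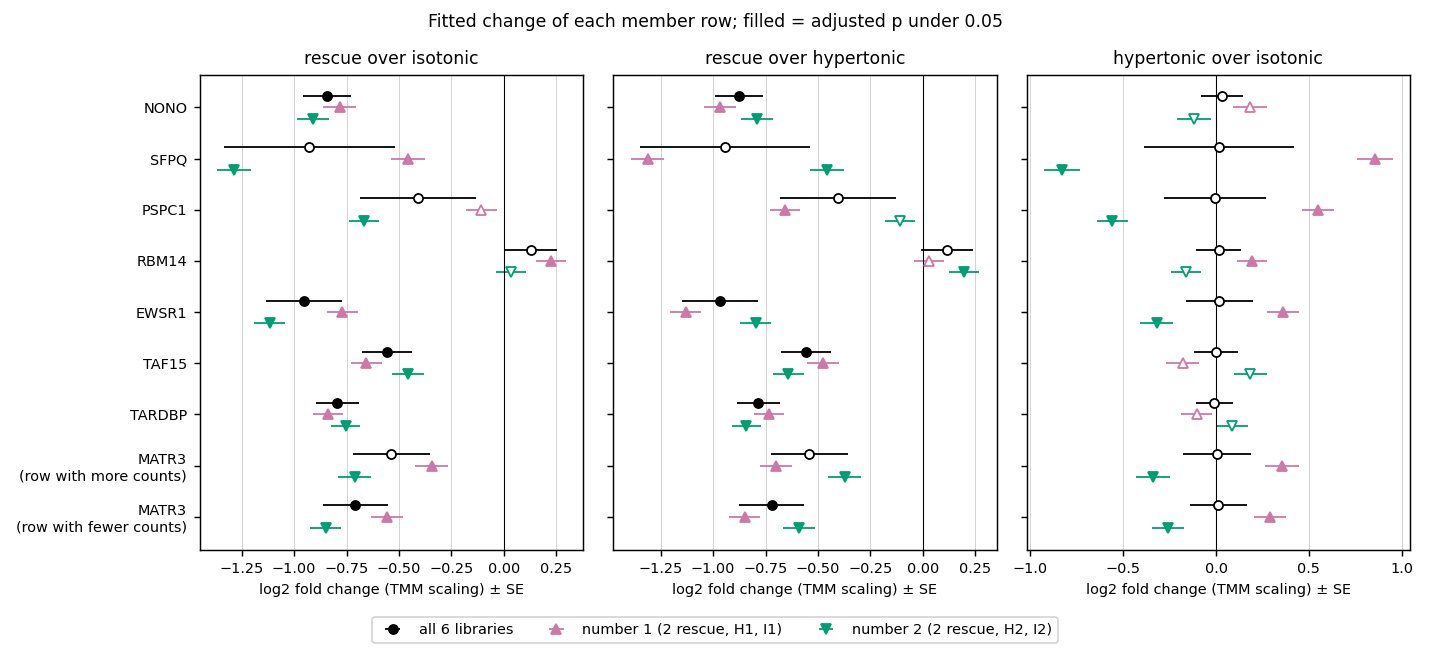
Log2 fold change of each of the 9 rows (horizontal axes, TMM scaling; bars are standard errors) in 3 comparisons, fitted to all 6 libraries (black circles) or to the rescue libraries with the hypertonic and isotonic library of number 1 (upward triangles) or number 2 (downward triangles). Filled symbols have an adjusted p under 0.05. For the triangles that p rests on the spread between the rescue libraries only. For hypertonic over isotonic the triangles lie on opposite sides of 0 in all 9 rows, from 0.85 to -0.83 for SFPQ. Across genes, deviations of same-numbered hypertonic and isotonic libraries from their group means correlated at -0.989. Opposite signs are thus not particular to these rows.

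The same restricted fits were read for the rescue comparisons. Their SEs and calls rest on the spread between the rescue libraries only, so they cannot show how far isotonic or hypertonic libraries vary. SFPQ was lower in rescue in both numbers, by 0.46 on the log2 scale relative to isotonic 1 (SE 0.0822) and by 1.29 relative to isotonic 2 (SE 0.0804). PSPC1 was at -0.11 over isotonic 1 (SE 0.073) and at -0.67 over isotonic 2 (SE 0.0717). RBM14 was at 0.22 over isotonic 1 (SE 0.0723) and at 0.04 over isotonic 2 (SE 0.072). NONO, EWSR1, TAF15, TARDBP and both MATR3 rows fell in both numbers. In number 1, 7 of 9 rows were lower and 1 higher over isotonic, where 38.6% and 40.5% of all rows were. In number 2, 8 were lower and 0 higher, where 40.1% and 40.7% were. Over hypertonic, number 1 gave 8 lower and 0 higher (40.5% and 41% of all rows), and number 2 gave 7 lower and 1 higher (38.6% and 40.5%).

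Ratios between members do not depend on the scaling of the library. DBHS proteins act as dimers, so the balance of their transcripts was followed. There were 1.44 and 1.48 counts of SFPQ for each count of NONO in rescue, 1.85 and 1.16 in hypertonic, and 1.16 and 1.89 in isotonic libraries. Rescue thus lay between the high and the low libraries of the other groups. The PSPC1 to NONO ratio was 0.254 and 0.282 in rescue, 0.216 and 0.167 in hypertonic, and 0.168 and 0.226 in isotonic libraries, so both rescue values were highest. RBM14 over NONO was 0.464 and 0.477 in rescue, 0.236 and 0.237 in hypertonic, and 0.234 and 0.244 in isotonic libraries. This was the clearest separation, with the 4 other libraries within 0.01 of each other. Between the FET members, TAF15 over EWSR1 was 1.16 and 1.17 in rescue, 0.739 and 1.05 in hypertonic, and 1.07 and 0.736 in isotonic libraries. TARDBP over NONO overlapped between groups, at 0.412 and 0.413 in rescue, 0.351 and 0.427 in hypertonic, and 0.429 and 0.370 in isotonic libraries. Exact binomial 95% intervals of these ratios reached at most 2.54% to each side and cover counting error only. The ratios carry no test and are not molar ratios, since counts were not divided by length.

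**Figure D3:**
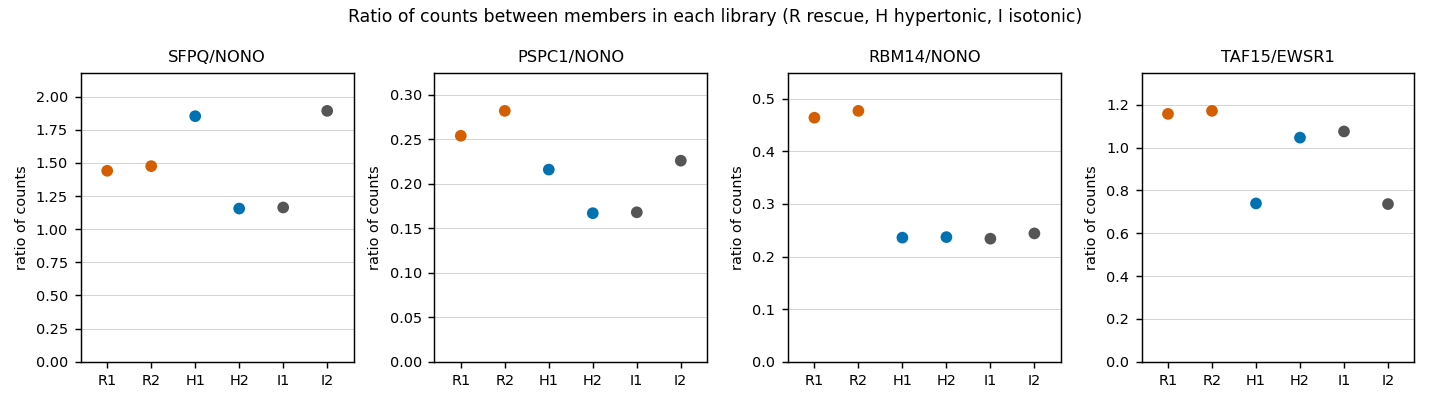
Ratio of counts between members (vertical axes, from 0) in each library (horizontal axes), with rescue (R) left of hypertonic (H) and isotonic (I). The RBM14 to NONO ratio was 0.464 and 0.477 in rescue and 0.234 to 0.244 in the other libraries, while SFPQ over NONO was highest in H1 and I2.

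Other proteins of the same bodies and pathways were followed as lists. The lists, like the members, were chosen with earlier results of these data known, so their counts are not separate evidence. Of 28 other paraspeckle proteins, 13 were lower and 1 higher in rescue than in isotonic, with a median log2 change of -0.71. Over all rows 13.5% were lower and 9.61% higher, with a median of -0.02, and the counts of the lists below stand against the same shares. RBMX, an X-linked splicing regulator, was at 101 and 97.0 CPM in rescue, 199 and 224 CPM in hypertonic, and 222 and 195 CPM in isotonic libraries (log2 change -1.36, SE 0.0923, adjusted p = 0.00834, edgeR). SMARCA4, the BRG1 ATPase of SWI/SNF, fell by 1.06, FAM98A by 1.63, and NUDT21, a subunit of cleavage factor I, by 0.99. The member that rose was ZC3H6, a zinc finger gene named after its value was seen, at 30.4 and 31.2 CPM in rescue, 2.38 and 4.00 CPM in hypertonic, and 3.95 and 1.84 CPM in isotonic libraries. HNRNPK, needed for paraspeckle formation, did not pass (-0.56, SE 0.211, adjusted p = 0.129, edgeR).

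Of 14 other prion-like or nuclear-matrix RNA-binding proteins, 6 were lower and 0 higher, against 13.5% and 9.61% of all rows, with a median of -0.62. HNRNPDL was at 110.2 and 106 CPM in rescue, 362 and 306 CPM in hypertonic, and 311 and 371 CPM in isotonic libraries, and fell by 1.96 over isotonic (SE 0.213, adjusted p = 0.0109, edgeR). The stress granule genes G3BP1 and CAPRIN1 fell by 0.80 and 0.84, and HNRNPA3 by 0.83. Of 10 genes for nuclear transport and arginine methylation, 5 were lower and 0 higher, against 13.5% and 9.61% of all rows, with a median of -0.81. The importins KPNB1 and KPNA2 fell by 1.31 and 1.25, TNPO2 by 1.16 and KPNA3 by 0.97. TNPO1, the import receptor of the FET proteins, was at -0.43 (SE 0.217, adjusted p = 0.224, edgeR), and PRMT1, which methylates their arginines, at -0.71 (SE 0.189, adjusted p = 0.0613, edgeR). Over hypertonic the counts were the same, 13 lower and 1 higher, 6 and 0, and 5 and 0, and in hypertonic over isotonic 0 passed in any list. With scaling by library total the counts over isotonic were 9 lower and 1 higher, 5 and 0, and 4 and 1, where 6.01% of all rows were lower and 11.3% higher.

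**Figure D4:**
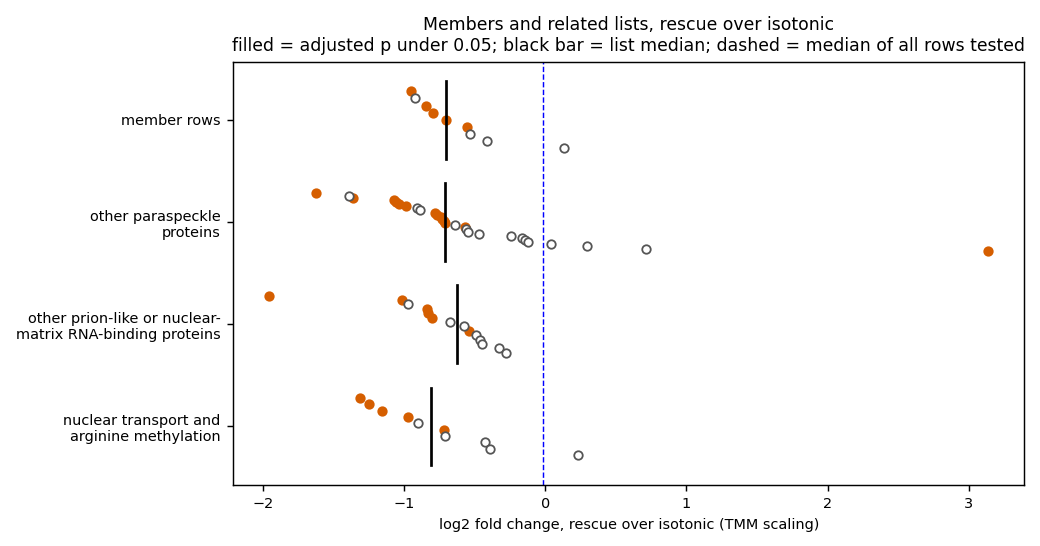
Log2 fold change of rescue over isotonic (horizontal axis, TMM scaling) for the 9 member rows and 3 lists of related genes; every point is a row, filled where the adjusted p was under 0.05. Black bars are list medians, between -0.62 and -0.81, and the dashed line is the median of all rows, -0.02. Members and lists were chosen with earlier results of these data known.

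The genes whose pattern over the 6 libraries was most like each member were sought among 13110 rows with a mean of at least 5 CPM, by the root mean square difference of centred log2 CPM. For NONO these were ZNF496 (0.016) and EXOC7 (0.018), for SFPQ ITPR3 (0.015) and BICD2 (0.023), and for PSPC1 FEZ2 and PHACTR4 (0.019 each). For RBM14 they were RPL37A (0.012), a ribosomal protein gene, and ATP6V1A (0.014). EWSR1 lay closest to PEA15 (0.014) and THY1 (0.024), TAF15 to FDPS (0.015) and DUT (0.016), and TARDBP to CCT8 (0.014). The MATR3 row with more counts lay closest to COL12A1 (0.011) and ATP2A2 (0.018), and the other row to MRAP (0.018) and PDPK1 (0.020). Between 115 rows (SFPQ) and 752 rows (TAF15) lay within 0.1 of a member, so such likeness was common over 6 libraries.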

How the data were processed

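Total RNA of U2OS GFP-DCP1A cells was sequenced as 6 libraries, 2 per group. For each library the authors deposited a table of whole-number counts by gene name, not normalized. The submitters' processing notes name TopHat2, Bowtie2, bcl2fastq and bedtools, with GRCh38 (hg38). The sources used here give no versions, annotation or strand setting of the counting, although the labels' protocols include uridine digestion, which marks strand. Overlapping genes on either strand may therefore share reads. Total counts per library ranged from 90196278 to 105991428. The 33 names on more than 1 row were kept as separate rows.

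Samples were grouped by title. edgeR 4.0.16 (R 4.3.3) fitted a mean per group to all 6 libraries after filterByExpr and TMM, with robust quasi-likelihood dispersion; the common dispersion was 0.1477 and 3 residual degrees of freedom remained. The standard error is the log2 change divided by the root of F. Alternatives were DESeq2 1.42.0, limma voom 3.58.1, other scalings, no filter, a replicate block and fits without libraries. The edgeR steps were also run on simulated counts that held no crossed pairs. Recovery of known changes was required only at a dispersion far below that of these data. Members were those of the rule; named genes were overlapping rows, up to 4 per list with the smallest p at a mean of at least 5 CPM, and the 2 nearest patterns per member (log2 of CPM plus 0.1), of which 1 is not reported here. HNRNPK, TNPO1 and PRMT1 were named beyond it for their known roles. The members and lists were chosen with earlier results of these data known. Deviations of same-numbered hypertonic and isotonic libraries from their group means correlated at -0.989 across genes.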

Additional observations from a re-analysis of the deposited data

How the results depend on the processing

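For rescue over isotonic and over hypertonic, no member changed direction in any alternative. Of 9 member rows, 5 were called in each. Upper quartile scaling called 2 in each, NONO and TARDBP, with EWSR1, TAF15 and the MATR3 row with fewer counts lost. The number 1 and number 2 fits called 8 and 8, among them SFPQ, the larger MATR3 row and either PSPC1 or, as higher, RBM14. Leaving out 1 library gave between 0 and 4 over isotonic and between 0 and 5 over hypertonic. TAF15 also lost its call over isotonic without hypertonic 1 or hypertonic 2, as did the MATR3 row with fewer counts without hypertonic 2, and TAF15 over hypertonic without isotonic 1. Over all rows, 4202 and 4304 were called. Leaving out 1 library gave 0 to 3460 and 0 to 3691, DESeq2 7041 and 7105, the number 1 fit 14591 and 15027, and the number 2 fit 14898 and 14586. Scaling moved the split: over isotonic, 1749 rows were higher and 2453 lower with TMM, 2050 and 1095 by library total, and 2091 and 1404 by upper quartile; over hypertonic, 1796 and 2508, 2109 and 1098, and 2137 and 1448.

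The replicate block gave 0 member rows and 0 rows in all in each comparison, with 5 member rows at an unadjusted p under 0.05 in both rescue comparisons. The numbers did not pair the libraries (r = 0.094 for rescue with hypertonic, -0.070 for rescue with isotonic and -0.989 for hypertonic with isotonic). With crossed pairs as the block, chosen after seeing the data, 21 rows and 0 member rows were called in hypertonic over isotonic.

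For hypertonic over isotonic, the number 1 and number 2 fits called 6 and 5 member rows, and 11841 and 11776 rows in all, and DESeq2 called 1. The log2 changes, none of them called in the fit to all 6 libraries, turned in sign as follows. In the number 2 fit NONO was at -0.12, SFPQ -0.83, RBM14 -0.16, EWSR1 -0.32, TARDBP 0.087 and MATR3 -0.34 and -0.26, and in the number 1 fit PSPC1 was at 0.55 and TAF15 -0.18. Leaving out 1 library, NONO lay between -0.057 and 0.120, SFPQ between -0.475 and 0.488, PSPC1 between -0.306 and 0.300, RBM14 between -0.076 and 0.111, EWSR1 between -0.157 and 0.203, TAF15 between -0.095 and 0.104, TARDBP between -0.062 and 0.045, the MATR3 row with more counts between -0.167 and 0.200, the MATR3 row with fewer counts between -0.125 and 0.167. TAF15 was at -0.001 with DESeq2 or its size factors, -0.007 by library total and -0.000 with limma voom, PSPC1 at 0.001 with limma voom, and the larger MATR3 row at -0.001 by library total. The cause was not tested. Genes with few reads are limited by depth; no member is.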
